A study of Mus musculus with 9 samples.

Results

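Neuronal immediate early genes were followed as a set of 10 genes, Fos, Fosb, Junb, Egr1, Egr2, Egr4, Arc, Npas4, Ier2 and Dusp1, matched by Ensembl identifier to GENCODE symbols of GRCm38. All 10 were found among the 47643 genes of the count matrix, and all 10 passed the filter on low counts in every comparison. RNA was from the hippocampus of 9 mice, with 1 library per mouse and 3 libraries in each group. The MRL/mpj group (wild type, untreated) is the control strain, MRL/lpr is the lupus-prone MRL/MpJ line that carries the lpr mutation of Fas, and MRL/lpr+MSC is the same genotype given mesenchymal stem cells. All mice were 6 weeks old. The labels name C57BL/6 as the strain of every mouse and call the MRL/lpr mice untreated, while the title of the series speaks of PBS. Dose, route and timing of the stem cells are not given in the sources used here, nor is the hour at which tissue was taken. For tissue collection the study's methods describe isoflurane anesthesia followed by perfusion with ice-cold PBS.

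Immediate early genes are transcribed in neurons soon after synaptic activity and need no new protein for it. Calcium entry activates CREB and the SRF complex, which sit on CRE and CArG sequences of these promoters and start transcription at once. In the hippocampus their mRNA is widely used as a record of recent neuronal activity, since most of it is short-lived. The products fall into several classes: parts of the AP-1 transcription factor (Fos, Fosb, Junb), zinc finger factors (Egr1, Egr2, Egr4), a synaptic effector (Arc), a neuron-restricted transcription factor (Npas4), a regulator of early transcription (Ier2) and a phosphatase that shuts off MAP kinases (Dusp1).

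The promoters of 5 members are shown because 1 sequence element was common to every member with an entry. In the RefSeq promoter table of GRCm38.p6, which covers 250 bases before to 50 after each start, 7 of the 10 members had an entry, with 11 starts in all, of which Egr2 had several. Arc, Ier2 and Egr1 were not analysed in this way. The CRE core (TGACG, or CGTCA on the other strand) was found for 7 of 7 members and in 9 of 11 windows, against 20.8% of the 32851 promoters of the same length. The Egr2 windows that begin at chr10:67537619, 67537620 and 67537680 overlap and hold the same cores, so the windows are not separate counts. In the sequences below, written 5′ to 3′ on the strand of the gene, capitals mark that core.
Fos, chr12:85473640-85473939, plus strand: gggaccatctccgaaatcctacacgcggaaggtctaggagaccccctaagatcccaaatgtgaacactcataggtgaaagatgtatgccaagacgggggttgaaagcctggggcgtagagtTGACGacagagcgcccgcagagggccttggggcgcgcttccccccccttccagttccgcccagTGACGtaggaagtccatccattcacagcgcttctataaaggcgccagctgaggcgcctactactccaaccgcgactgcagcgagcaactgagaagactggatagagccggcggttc
Junb, chr8:84978699-84978998, minus strand: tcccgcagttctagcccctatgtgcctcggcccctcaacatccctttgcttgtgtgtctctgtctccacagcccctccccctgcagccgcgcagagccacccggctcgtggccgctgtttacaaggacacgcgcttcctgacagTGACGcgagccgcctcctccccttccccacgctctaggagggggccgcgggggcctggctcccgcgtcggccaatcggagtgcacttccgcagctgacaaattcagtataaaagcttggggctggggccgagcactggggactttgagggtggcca
Egr4, chr6:85513540-85513839, minus strand: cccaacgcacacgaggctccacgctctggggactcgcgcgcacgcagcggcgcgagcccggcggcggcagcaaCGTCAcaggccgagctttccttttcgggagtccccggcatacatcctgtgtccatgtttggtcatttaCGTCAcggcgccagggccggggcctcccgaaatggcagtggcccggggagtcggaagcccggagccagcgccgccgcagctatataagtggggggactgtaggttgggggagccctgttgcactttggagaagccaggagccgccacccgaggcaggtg
Npas4, chr19:4989922-4990221, minus strand: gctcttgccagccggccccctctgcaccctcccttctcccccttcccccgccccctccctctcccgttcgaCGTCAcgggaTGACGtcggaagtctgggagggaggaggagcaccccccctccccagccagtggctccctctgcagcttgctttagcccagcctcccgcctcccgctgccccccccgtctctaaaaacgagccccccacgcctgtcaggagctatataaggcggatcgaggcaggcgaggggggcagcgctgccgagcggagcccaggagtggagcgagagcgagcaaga
Dusp1, chr17:26508423-26508722, minus strand: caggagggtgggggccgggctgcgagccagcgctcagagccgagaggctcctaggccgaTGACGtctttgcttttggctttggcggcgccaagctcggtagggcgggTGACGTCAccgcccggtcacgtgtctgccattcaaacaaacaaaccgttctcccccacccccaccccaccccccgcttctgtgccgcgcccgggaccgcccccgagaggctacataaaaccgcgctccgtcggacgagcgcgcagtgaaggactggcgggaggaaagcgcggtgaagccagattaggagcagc

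The cores began at -129 and -66 from the start for Fos, at -106 for Junb, at -60 for Fosb, at -177 and -109 for Egr4, and at -179 and -169 for Npas4. Dusp1 held 3, at -191, -143 and -140, and the last pair formed the full element TGACGTCA, which 1.79% of promoters held. The CArG box, the SRF site, was found at 4 starts of Egr2 and in 1.63% of all promoters. In the overlapping Egr2 windows, at -72, -73 and -133, it was the same site. Sites more than 250 bases before a start were not searched, so a missing match does not show that a member lacks the element. No AP-1 site (TGANTCA) was found in the 11 windows, against 7.81% of all promoters. In the same build Arc lies at chr15:74669083-74672570, Ier2 at chr8:84661331-84662852, Egr1 at chr18:34859823-34864984, Fosb at chr7:19302696-19310051 and Egr2 at chr10:67535475-67542188, and all 10 members are annotated as protein-coding. The matches describe letters in a window and were not compared with any binding data.

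Totals ranged from 19475804 to 26912031 counts per library, so 3 counts stood for 0.105 to 0.163 CPM, the count scaled to the size of the library. Counts per gene for the members ran from 36 for Egr2 to 4290 for Arc. A pair of points on the labels come before the results. The count over Fas, the mutated gene, was 2.0, 1.85 and 1.63 CPM in MRL/mpj, 2.27, 1.33 and 1.77 CPM in MRL/lpr and 0.985, 1.11 and 1.81 CPM in MRL/lpr+MSC. These groups overlapped, and a count over the whole gene does not see how its transcript is spliced, so it checked no label. In the study's supplementary gene table, each of the 3 columns headed MRL/lpr equalled, within 1% and after division by a single factor, the counts of a library that carries the label MRL/lpr+MSC, for each of 1811 to 1892 genes with at least 20 counts. The columns headed MRL/mpj fitted the libraries labelled MRL/mpj in the same way. Groups are used here as the labels give them. Both comparisons against MRL/mpj are therefore given side by side for the members and the list counts. Some genes outside the set are given only in the comparison in which they were called.

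Compared per length of transcript (FPKM), Egr1, Junb and Arc were the most abundant members and Egr2, Npas4 and Fosb the least abundant in each group. In MRL/mpj, Egr1 was at 33.7 ± 3.60 FPKM (SD, n = 3), Junb at 33.3 ± 9.23 and Arc at 21.6 ± 10.3. Egr2 was at 0.849 ± 0.243 FPKM in the same group and Npas4 at 1.38 ± 0.626. Arc led in MRL/lpr with 38.94 ± 20.1 FPKM, and Junb led in MRL/lpr+MSC with 29.6 ± 3.28. The order was loose, because the ranges of neighbouring genes overlapped at every step in MRL/lpr, and were apart only between Dusp1 and Ier2 in MRL/mpj and at the steps from Egr1 to Dusp1 and from Ier2 to Fosb in MRL/lpr+MSC.

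The AP-1 genes were variable from mouse to mouse. Fos, which encodes the classical activity marker, was at 12.9, 13.7 and 5.99 CPM in the MRL/mpj libraries 1 to 3, at 11.1, 14.4 and 34.9 CPM in MRL/lpr and at 10.2, 13.8 and 20.1 CPM in MRL/lpr+MSC. The single high value of MRL/lpr replicate 3 set the mean of its group, and the other MRL/lpr libraries lay on both sides of the highest MRL/mpj value. Fosb, whose product includes the long-lived ΔFosB form, was at 16.9, 12 and 8.98 CPM in MRL/mpj, 8.18, 10.4 and 13.5 CPM in MRL/lpr and 10.9, 10.6 and 15.3 CPM in MRL/lpr+MSC. Junb, a dimer partner of the Fos proteins, was at 76.8, 64.3 and 42.7 CPM, then 43.8, 42.9 and 68.5 CPM, then 51.2, 50.7 and 61.3 CPM in the same order of groups. For both genes the control group alone spanned most of the range of all 9 libraries. Junb overlaps Prdx2 on the other strand, and no source says if reads were counted by strand.

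The EGR genes differed most within the MRL/lpr and MRL/lpr+MSC groups. Egr1, a zinc finger factor tied to lasting synaptic change, was at 156, 165 and 132 CPM in MRL/mpj, 89.7, 67.7 and 156 CPM in MRL/lpr, and 78.4, 128 and 158 CPM in MRL/lpr+MSC. In 2 of the 3 MRL/lpr libraries it lay below every control, and in MRL/lpr replicate 3 it was inside the control range. Egr4 was at 32.3, 35.9 and 29.4 CPM in MRL/mpj, 27.6, 15.5 and 43.9 CPM in MRL/lpr, and 14.7, 27.4 and 36.8 CPM in MRL/lpr+MSC. Egr2, which outside neurons also controls myelination by Schwann cells, was at 3.59, 3.09 and 1.96 CPM, then 2.27, 1.68 and 5.24 CPM, then 2.33, 4.41 and 6.63 CPM. The controls were close together for Egr1 and Egr4, and the MRL/lpr group reached both above and below them for Egr4 and Egr2. Egr3, the family member outside the set, was at 48.8, 57.1 and 48.1 CPM in MRL/mpj and at 38.6, 40.9 and 38.1 CPM in MRL/lpr. These groups did not overlap, as for 38.0% of all genes tested. The Egr3 difference was -0.39 ± 0.09 on the log2 scale (± SE here and below), with an adjusted p of 0.0423 by limma, and stayed under 1.5-fold. In MRL/lpr+MSC Egr3 was at 34.8, 49.1 and 43.5 CPM and overlapped the controls. Its difference from MRL/mpj was -0.28 ± 0.14 there (adjusted p = 0.276 by limma).

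Arc and Npas4 each had their highest single value in an MRL/lpr library, as did Fos, Egr4 and Ier2. Arc, which carries AMPA receptors away from the synapse, was at 52.0, 102 and 43.5 CPM in MRL/mpj, 119, 58.4 and 181 CPM in MRL/lpr, and 85.6, 93.8 and 76.8 CPM in MRL/lpr+MSC. Npas4, which shapes inhibitory synapses in active neurons, was at 6.24, 5.11 and 2.23 CPM in MRL/mpj, 8.98, 3.79 and 20.03 CPM in MRL/lpr, and 7.0, 3.99 and 5.17 CPM in MRL/lpr+MSC. For both genes MRL/lpr replicates 1 and 3 were above every control, while MRL/lpr replicate 2 lay within the control range. Arc was tight in MRL/lpr+MSC, where the highest library was 1.22 times the lowest, against 3.10 times in MRL/lpr and 2.35 times in MRL/mpj.

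Ier2 and Dusp1 ordered the MRL/lpr mice in another way. Ier2 was at 9.93, 7.87 and 8.0 CPM in MRL/mpj, 5.28, 10.03 and 7.82 CPM in MRL/lpr, and 8.19, 6.73 and 8.84 CPM in MRL/lpr+MSC. Dusp1 was at 41.9, 21.1 and 32.0 CPM in MRL/mpj, 13.8, 40.5 and 27.3 CPM in MRL/lpr, and 28.4, 43.6 and 44.9 CPM in MRL/lpr+MSC. Both were highest in MRL/lpr replicate 2, the library in which Arc, Npas4 and the EGR genes were lowest. The annotated span of Dusp1 holds Ergic1 on the other strand, which had 19033 counts over all libraries, so reads from the pair could mix if strand was not used.

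**Figure D1:**
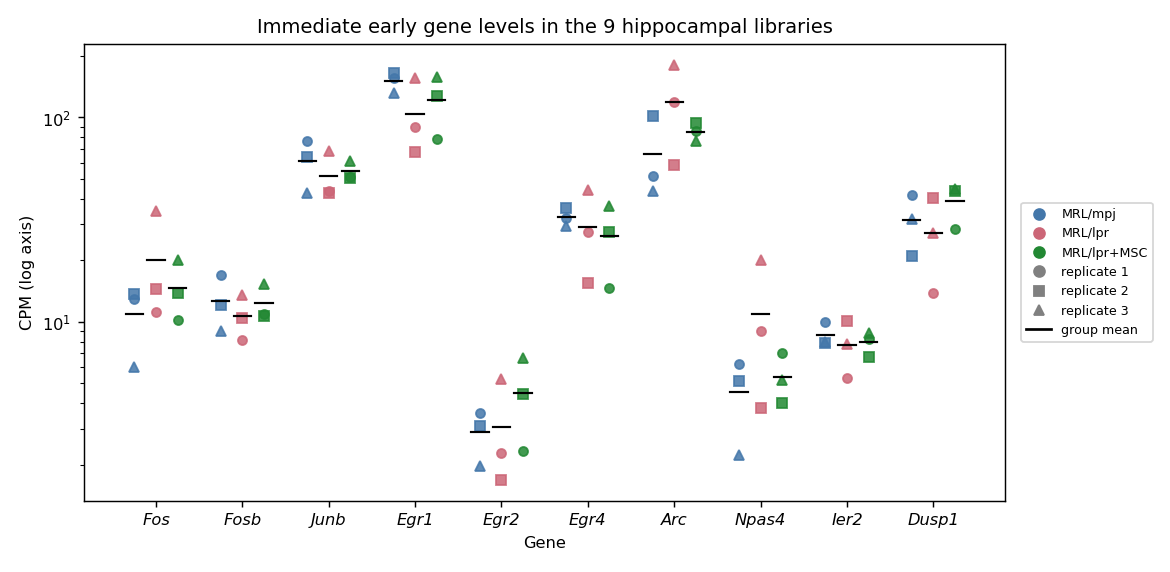
CPM of the 10 genes (log axis) in each of the 9 libraries, with colour for the group, the symbol for the replicate and a black line for the group mean. The groups overlap for every gene, and the triangle of MRL/lpr replicate 3 is the top red point for 8 of 10 genes.

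No member passed the test between MRL/lpr and MRL/mpj, the comparison of the disease model with its control. With a call defined as an adjusted p under 0.05 and at least 1.5-fold, limma voom called 0 of 10 members, beside 5.80% of the 16697 genes tested. For 10 genes, 0 calls is near that share. An unadjusted p under 0.05 was found for 0 of 10 members and for 5090 of all genes tested. Other versions of the test, limma-trend and limma with library quality weights, also called 0 of 10, and the unadjusted p was under 0.05 for 0 and 1 member (Egr1). The groups overlapped for 10 of 10 members, while 38.0% of all genes tested had no overlap. The estimates were 3 above and 7 below 0, with a median of -0.23 on the log2 scale, beside a median of 0.02 over all genes.

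The intervals were wide for the genes with the largest estimates. Npas4 was at 1.06 ± 0.73 on the log2 scale (95% interval -0.70 to 2.82, adjusted p = 0.370 by limma voom), higher in 2 of 3 MRL/lpr libraries than in any control. Arc was at 0.80 ± 0.48 (-0.35 to 1.96, adjusted p = 0.306) and Fos at 0.73 ± 0.54 (-0.56 to 2.03, adjusted p = 0.399). Egr1 had the lowest p of the set, with a log2 difference of -0.61 ± 0.29 (-1.31 to 0.09, adjusted p = 0.211). For the other 6 genes the estimates lay between -0.31 for Dusp1 and -0.06 for Egr2. The intervals of 4 genes reached a 2-fold rise and those of 4 genes a 2-fold drop, so for these genes a difference of that size is not excluded by the data.

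The picture changed with the MRL/lpr mouse that was left out. Without MRL/lpr replicate 3, Egr1 differed by -0.95 ± 0.15 on the log2 scale (adjusted p = 0.0153 by limma voom) and was called, the only call of a member in any alternative of any comparison. Over the alternatives of this comparison its adjusted p ran from 0.0153 to 0.411. Egr4 then stood at -0.62 ± 0.24 (adjusted p = 0.150) and the median of the set at -0.42. Without MRL/lpr replicate 2 instead, Arc was at 1.24 ± 0.37 (adjusted p = 0.0666) and Npas4 at 1.61 ± 0.53 (adjusted p = 0.0875), and the median was -0.03.

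No member passed between MRL/lpr+MSC and MRL/mpj either. Limma voom called 0 of 10 members, beside 3.41% of the 16196 genes tested, and for 10 genes 0 calls is again near that share. An unadjusted p under 0.05 was found for 0 of 10 members and for 3711 of all genes tested. The groups overlapped for 10 of 10 members, while 29.6% of all genes had no overlap. Limma-trend and library quality weights called 0 of 10, with 0 and 1 member (Egr2) at an unadjusted p under 0.05. The largest estimate was Egr2 at 0.56 ± 0.42 (95% interval -0.44 to 1.56, adjusted p = 0.478), followed by Arc at 0.46 ± 0.30 and Fos at 0.46 ± 0.37. Fosb was at -0.01 ± 0.25 (-0.60 to 0.58). Without MRL/mpj replicate 2, Arc reached 0.82 ± 0.13, with an adjusted p of 0.0520 by limma voom (0.0520 to 0.747 over the alternatives). Both comparisons use the same 3 control libraries.

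Between treated and untreated MRL/lpr mice, no gene of the whole table was called. Of the members, 0 of 10 were called by limma voom and 0 of 10 had an unadjusted p under 0.05, beside 0.00% of the 16758 genes tested, among which 648 had an unadjusted p under 0.05. Limma-trend and library quality weights called 0 members as well, with 0 and 1 (Dusp1) at an unadjusted p under 0.05. The groups overlapped for 10 of 10 members, and 9.98% of all genes had no overlap. Npas4 was at -0.75 ± 0.66 (95% interval -2.34 to 0.84) and Dusp1 at 0.66 ± 0.40 (-0.30 to 1.62), with an adjusted p of 0.921 for each. Without MRL/lpr replicate 2, Npas4 stood at -1.32 and Arc at -0.79, and without MRL/lpr replicate 3 they stood at -0.20 and 0.05.

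**Figure D2:**
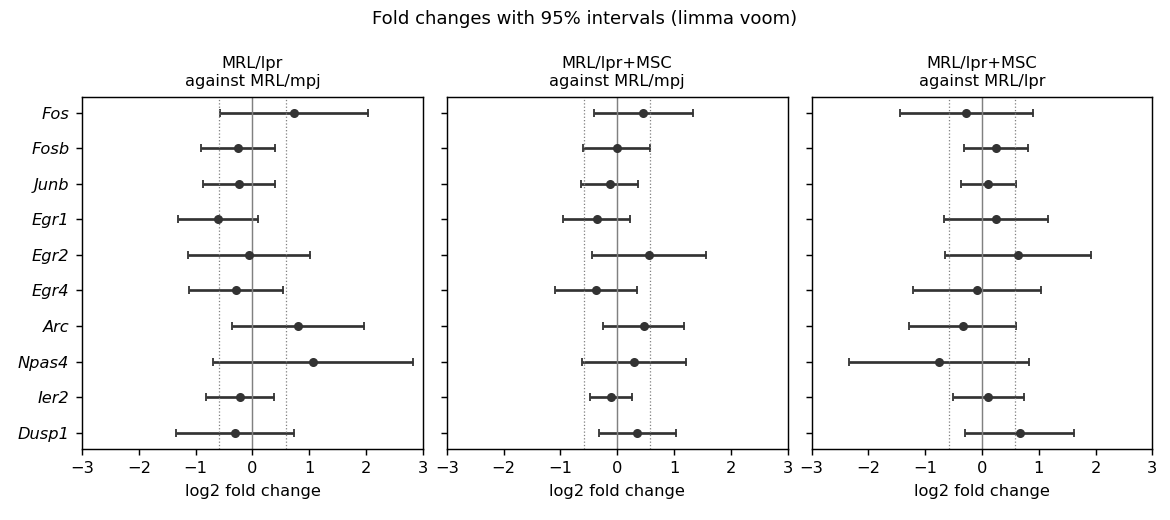
Log2 fold change of each gene (points) with its 95% interval (bars) from limma voom, 1 panel per comparison, 3 libraries per group. The solid line is no difference and the dotted lines are 1.5-fold. Every interval includes 0, from -0.61 for Egr1 to 1.06 for Npas4 in the left panel.

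What stood out in these genes was the spread between mice of the same group. After removing the group means, the SD of log2 CPM over the 9 libraries was 0.86 for Npas4, 0.70 for Egr2, 0.69 for Fos, 0.61 for Arc, 0.59 for Egr4, 0.58 for Dusp1 and 0.47 for Egr1, against a median of 0.20 over the 17113 genes tested in all libraries. Junb (0.35), Fosb (0.38) and Ier2 (0.31) were the steadiest. Set beside genes within 0.5 of their own mean log2 CPM, Arc was more variable than 99.4% of 2083 genes and Egr1 than 98.7% of 1547 genes. The same share was 97.7% for Fos, 97.8% for Egr4, 97.7% for Dusp1, 96.0% for Npas4, 94.1% for Junb, 88.7% for Egr2, 85.5% for Fosb and 71.6% for Ier2. For Egr1 and Egr4 the controls had little part in this spread. Their highest MRL/mpj library was 1.25 and 1.22 times the lowest. The same values were 2.31 and 2.83 in MRL/lpr and 2.02 and 2.51 in MRL/lpr+MSC. In bulk tissue, fewer cells of a type and less RNA per cell cannot be told apart, so such a value says nothing of how many neurons carried the transcript.

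**Figure D3:**
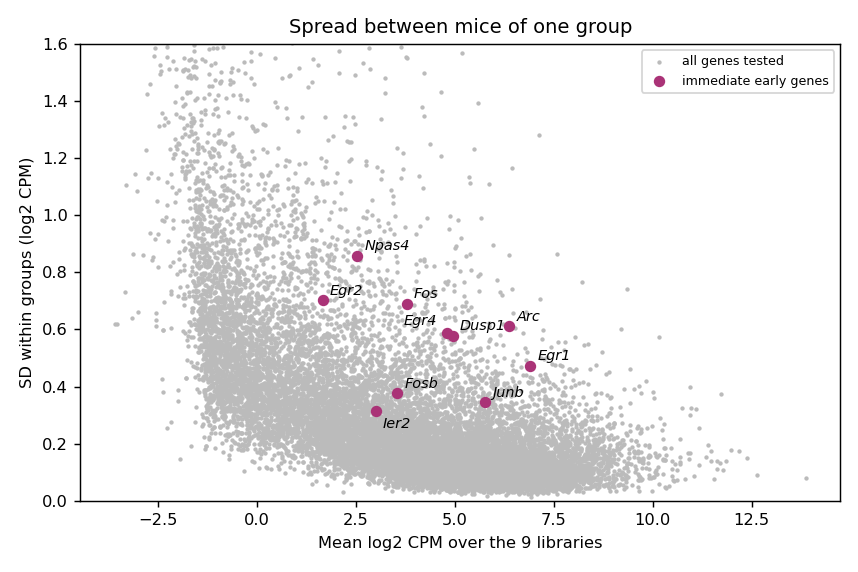
SD of log2 CPM within groups (vertical axis) against mean log2 CPM over the 9 libraries (horizontal axis), for all 17113 genes tested (grey) and the 10 immediate early genes (purple). The axis ends at 1.6, and 298 genes lie above it. Arc (0.61) and Egr1 (0.47) sit far above most genes of their level, and Ier2 (0.31) lies among them.

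Much of the spread was shared between genes, within and across their classes. Over the 9 libraries after subtraction of group means, Pearson's r was 0.93 to 0.98 for the 3 pairs of EGR genes and 0.86 to 0.92 for the 3 pairs of AP-1 genes. It was 0.77 for Arc with Npas4 and 0.79 for Ier2 with Dusp1. Pairs across these classes reached similar values, from 0.44 to 0.89 for AP-1 with EGR genes, with Fos and Egr2 at the top, and from 0.18 to 0.83 for AP-1 genes with Arc or Npas4, with Junb and Npas4 at the top. Between Arc or Npas4 and Ier2 or Dusp1 the 4 values were negative, from -0.56 to -0.10, and between the EGR genes and Ier2 or Dusp1 they ran from -0.27 to 0.18. Between AP-1 genes and Ier2 or Dusp1 the 6 values were positive, from 0.17 to 0.61, with Fosb and Ier2 at the top. These values are descriptions over libraries that share depth and dissection, and they carry no test.

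Seen by mouse, MRL/lpr replicate 3 was the highest of its group for 8 of 10 genes, all but Ier2 and Dusp1. In that library Npas4 was 1.18 above its group mean on the log2 scale, Fos 0.98 and Egr2 0.94. MRL/lpr replicate 2 was the lowest for 6 genes, with Npas4 at -1.21 and Arc at -0.89, and the highest for Ier2 (0.43) and Dusp1 (0.71). MRL/mpj replicate 3 was the lowest control for 8 of 10 genes, and MRL/lpr+MSC replicate 3 was the highest of its group for 8 of 10, with Arc, its lowest of the group, and Npas4 apart. The summed CPM of the 10 genes was 307 to 430 in MRL/mpj, 265 to 559 in MRL/lpr and 297 to 434 in MRL/lpr+MSC.

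**Figure D4:**
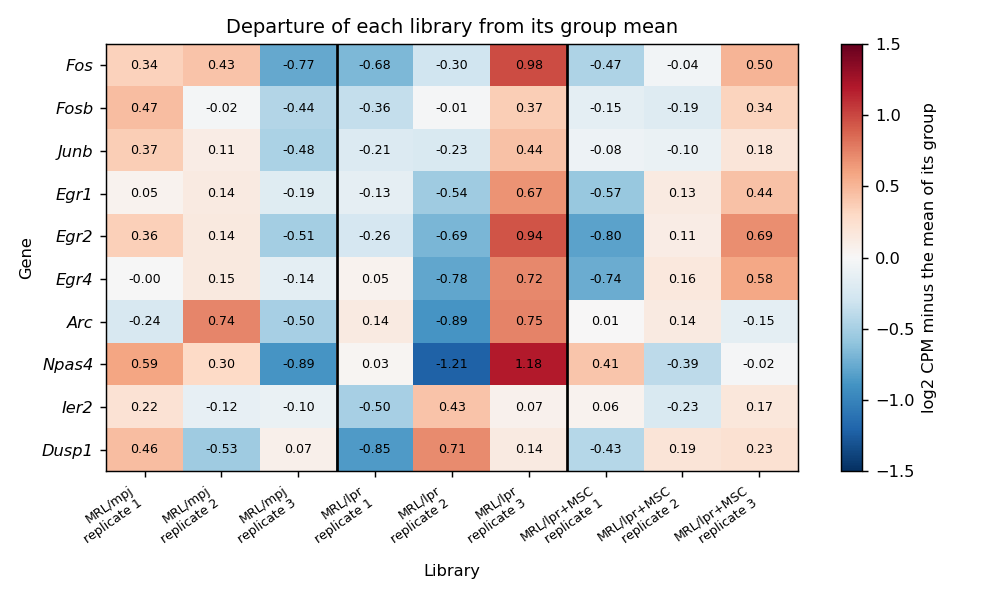
Log2 CPM of each gene (rows) in each library (columns) minus the mean of its group of 3, printed in the cells, with red above and blue below the mean. MRL/lpr replicate 3 is red for all 10 genes, and MRL/lpr replicate 2 is blue for 8 of them and red for Ier2 (0.43) and Dusp1 (0.71).

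Markers of cell types and regions also differed between the libraries of a group, some upward and some downward in the same library. Choroid plexus markers summed to 9663 CPM in MRL/lpr replicate 2, with 7 of 7 genes highest there, against 1075 CPM in replicate 1 and 109 CPM in replicate 3. They summed to 167 to 708 CPM in MRL/mpj and 99.99 to 4857 CPM in MRL/lpr+MSC, where replicate 2 was the high library. Dentate granule cell markers were highest in MRL/lpr replicate 2 for 8 of 8 genes, at 1076 CPM against 617 and 555 CPM, and ranged from 638 to 981 CPM in MRL/mpj and from 427 to 686 CPM in MRL/lpr+MSC. In MRL/lpr replicate 2, where Arc, Npas4 and the EGR genes were lowest, CA1 markers were lowest for 5 of 6 genes, at 435 CPM against 601 and 570 CPM, and oligodendrocyte markers for 6 of 6 genes, at 4953 CPM against 9681 and 6006 CPM. Oligodendrocyte markers ranged from 7551 to 8217 CPM in MRL/mpj and from 4236 to 7585 CPM in MRL/lpr+MSC.

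In MRL/lpr replicate 3, where 8 early genes were highest, interneuron markers summed to 1678 CPM against 951 and 708 CPM, with 6 of 8 genes highest and 2 of 8 lowest there, and ranged from 881 to 1032 CPM in MRL/mpj and from 944 to 1435 CPM in MRL/lpr+MSC. Thalamic markers summed to 292 CPM in that library, the highest sum of its group, but 4 of 7 genes were highest and 3 of 7 lowest there. In MRL/lpr+MSC replicate 3 they summed to 306 CPM, with 6 of 7 genes highest, in overall ranges of 158 to 292 CPM in MRL/lpr, 98.6 to 306 CPM in MRL/lpr+MSC and 136 to 176 CPM in MRL/mpj. MRL/lpr replicate 3 was also the lowest of its group for 9 of 9 microglial markers (323 CPM against 459 and 353 CPM) and 5 of 5 CA3 markers (215 CPM against 335 and 412 CPM). Microglial markers ranged from 368 to 410 CPM in MRL/mpj and from 314 to 355 CPM in MRL/lpr+MSC, and CA3 markers from 295 to 433 CPM and from 263 to 434 CPM. MRL/lpr+MSC replicate 1, the lowest of its group for the EGR genes, was the highest for 10 of 10 pan-neuronal markers, at 9121 CPM against 6321 and 6621 CPM. These ranged from 7506 to 8666 CPM in MRL/mpj and from 5840 to 6695 CPM in MRL/lpr. None of these markers was at 0 in all libraries of a group, and their part in the levels of the early genes was not tested. As a check of the tissue label, CA1 markers summed to 435 to 988 CPM and dentate markers to 427 to 1076 CPM over the libraries.

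Some markers of CA1 cells and of interneurons were called between groups. All 6 CA1 markers had estimates below 0 in MRL/lpr against MRL/mpj and 4 of 6 were called lower, beside 5.80% of all genes, with a median of -1.17 on the log2 scale. Fibcd1 was at -1.11 ± 0.11 (adjusted p = 0.0037 by limma voom). The count in MRL/lpr+MSC against MRL/mpj was 1 of 6, called lower, beside 3.41% of all genes, again Fibcd1. Of the 8 interneuron markers, 3 were called lower in MRL/lpr against MRL/mpj and 0 in MRL/lpr+MSC, with medians of -0.60 and -0.26. The list did not move as a whole, since 5 estimates were below 0 and 3 above 0 in each comparison. Their sum was highest in a MRL/lpr library. Vip was at -1.19 ± 0.13, Pvalb at -0.98 ± 0.09 and Npy at -0.72 ± 0.13 on the log2 scale (adjusted p = 0.0062, 0.0034 and 0.0255 by limma voom). Of the other marker lists in MRL/lpr, 5 of 6 lymphocyte genes tested, 2 of 7 endothelial genes and 1 of 8 striatal genes were called higher, and 1 of 4 red blood cell genes tested was called lower. For pan-neuronal, dentate and CA3 genes 0 were called, but 10 of 10, 7 of 8 and 4 of 5 estimates were below 0. In MRL/lpr+MSC against MRL/mpj, 2 endothelial genes were called higher and 1 red blood cell gene lower. Only 1 of the 8 lymphocyte genes passed the filter on low counts there, so that list was hardly tested. CA1 cells are among the neurons that carry the early genes, and the part of these differences in their levels was not tested.

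Lists of related genes give the surroundings of the set. Their calls stand beside 5.80% of all genes called in MRL/lpr against MRL/mpj and 3.41% in MRL/lpr+MSC against MRL/mpj. Of 35 other rapid early genes, 3 (8.57%) were called in MRL/lpr, all lower than in MRL/mpj, and 4 (11.4%) in MRL/lpr+MSC, all lower. The share in MRL/lpr was near that over all genes. Nr4a2, an orphan nuclear receptor, was at 25.3, 22.2 and 20.4 CPM in MRL/lpr against 60.0, 61.3 and 51.3 CPM in MRL/mpj, a log2 difference of -1.34 ± 0.11. The groups did not overlap, as for 38.0% of all genes tested, and the spread within each was small beside the gap. Nr4a2 was not among the genes called in MRL/lpr+MSC. Plk2, a kinase that weakens active synapses, fell by 0.98 on the log2 scale in MRL/lpr and by 0.67 in MRL/lpr+MSC, and Fosl1, another AP-1 gene, fell by 0.72 and 0.63. Klf10 and Gadd45b were called in MRL/lpr+MSC at -0.70 ± 0.12 and -0.66 ± 0.12. The median of the list was -0.39 in MRL/lpr and -0.31 in MRL/lpr+MSC, and its summed CPM was 1605 to 1743 in MRL/mpj, 1214 to 1241 in MRL/lpr and 1284 to 1454 in MRL/lpr+MSC.

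Jun and Nr4a1 did not pass. Jun, the main partner of Fos, was at 82.2, 89.8 and 74.7 CPM in MRL/mpj and at 80.1, 117 and 85.3 CPM in MRL/lpr. In MRL/lpr+MSC Jun was at 131, 85.4 and 78.2 CPM. Nr4a1 was at 90.3, 69.0 and 48.2 CPM in MRL/mpj, 42.2, 32.6 and 49.9 CPM in MRL/lpr and 38.7, 59.8 and 52.5 CPM in MRL/lpr+MSC. Its difference between MRL/lpr and MRL/mpj was -0.71 ± 0.25 (adjusted p = 0.121 by limma voom), and it was called in 0 of 14 alternatives. Between MRL/lpr+MSC and MRL/mpj the difference was -0.43 ± 0.25 (adjusted p = 0.366 by limma voom). MRL/mpj replicate 3 lay below the highest MRL/lpr library.

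Among 23 delayed activity-regulated genes, whose transcription follows the early factors, 3 (13.0%) were called in MRL/lpr, all lower, and 4 (17.4%) in MRL/lpr+MSC, 3 lower and 1 higher, beside 5.80% and 3.41% of all genes. Nptx2, a pentraxin that gathers AMPA receptors, was at 34.9, 38.8 and 23.2 CPM in MRL/lpr against 53.3, 59.7 and 62.2 CPM in MRL/mpj, and at 20.6, 32.7 and 32.0 CPM in MRL/lpr+MSC. That is -0.88 ± 0.18 and -1.05 ± 0.17 on the log2 scale. Lingo3 was at -0.98 ± 0.09 and -1.38 ± 0.26, and Rasgrp1, an activator of Ras, at -0.75 ± 0.18 and -0.60 ± 0.11 in the same comparisons. Pcsk1, a prohormone convertase, was the gene that rose, to 15.6 to 16.9 CPM in MRL/lpr+MSC from 7.24 to 10.3 CPM. Bdnf and Homer1 were not called, at -0.50 ± 0.25 and -0.49 ± 0.13 in MRL/lpr. They were not called in MRL/lpr+MSC either, at -0.41 ± 0.13 and -0.29 ± 0.14. The median of the list was 0.02 in MRL/lpr and -0.06 in MRL/lpr+MSC, beside 0.02 and 0.01 over all genes.

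Of 32 upstream regulators, which carry the signal from the synapse to the early promoters, 4 (12.5%) were called in MRL/lpr and 1 (3.12%) in MRL/lpr+MSC, all lower, the latter share at that of all genes (3.41%). Camk4, the nuclear kinase that acts on CREB, was at 93.7, 119 and 78.2 CPM in MRL/lpr against 195, 215 and 252 CPM in MRL/mpj, a log2 difference of -1.20 ± 0.17. Grin1, the obligatory subunit of NMDA receptors, was at -0.62 ± 0.08, and Arnt2, a dimer partner of Npas4, at -0.63 ± 0.12. Elk4, an SRF partner on CArG boxes, was lower in both comparisons, at -0.61 ± 0.07 and -0.68 ± 0.10. These regulators differed between groups whose early gene levels overlapped, and no test linked one to the other.

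Hormone and clock genes were checked because stress hormones and the hour of death also act on early genes. Of 13 glucocorticoid-responsive genes, 3 (23.1%) were called in MRL/lpr and 5 (38.5%) in MRL/lpr+MSC, all lower, and 13 of 13 estimates were below 0 in each. Tsc22d3 was at 42.8, 41.0 and 62.0 CPM in MRL/lpr and 42.8, 51.2 and 59.8 CPM in MRL/lpr+MSC against 139, 96.4 and 128 CPM in MRL/mpj. Zbtb16 was at -1.08 ± 0.12 and -0.87 ± 0.15, Errfi1 at -0.87 ± 0.17 and -0.82 ± 0.18, and Mt2 at -0.79 ± 0.14 in MRL/lpr+MSC. Of 10 clock genes with E-box promoters, 4 were called in MRL/lpr and 3 in MRL/lpr+MSC, all lower, and 10 of 10 estimates were below 0 in each. Dbp was at 19.2, 19.3 and 20.1 CPM in MRL/lpr and 17, 20.3 and 20.4 CPM in MRL/lpr+MSC, against 45, 47.5 and 45.6 CPM in MRL/mpj. Ciart was at -1.50 ± 0.20 and -1.54 ± 0.19 and Nr1d1 at -0.72 ± 0.12 and -0.71 ± 0.14 in the same comparisons, and Hlf at -0.88 ± 0.08 in MRL/lpr. Of 10 heat shock and tissue stress genes, Hspa1b was called in MRL/lpr at -1.02 ± 0.22, and it has a near-identical copy, Hspa1a, with which it could share reads. The lists are not fully separate, since Per1 is in the rapid early, glucocorticoid and clock lists and Srf in the rapid early and upstream lists. No gene of these 6 lists was called between MRL/lpr+MSC and MRL/lpr, where limma voom called no gene at all.

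All calls in these lists had adjusted p-values between 0.0006 and 0.0473 in MRL/lpr and between 0.0011 and 0.0476 in MRL/lpr+MSC by limma voom. Direction was the same in every alternative, but many calls were lost in some. With scaling by total count 14 of 18 calls held in MRL/lpr and 13 of 17 in MRL/lpr+MSC, and with all 9 libraries in 1 fit 17 and 14 held, Nr4a2 being the call lost in MRL/lpr (adjusted p = 0.0563 by limma voom). Of the 18 calls in MRL/lpr, 11, 11 and 7 held without MRL/mpj replicate 1, 2 or 3, and 8, 16 and 15 without MRL/lpr replicate 1, 2 or 3. Of the 17 in MRL/lpr+MSC, 2, 4 and 3 held without MRL/mpj replicate 1, 2 or 3, and 16, 9 and 9 without MRL/lpr+MSC replicate 1, 2 or 3.

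**Figure D5:**
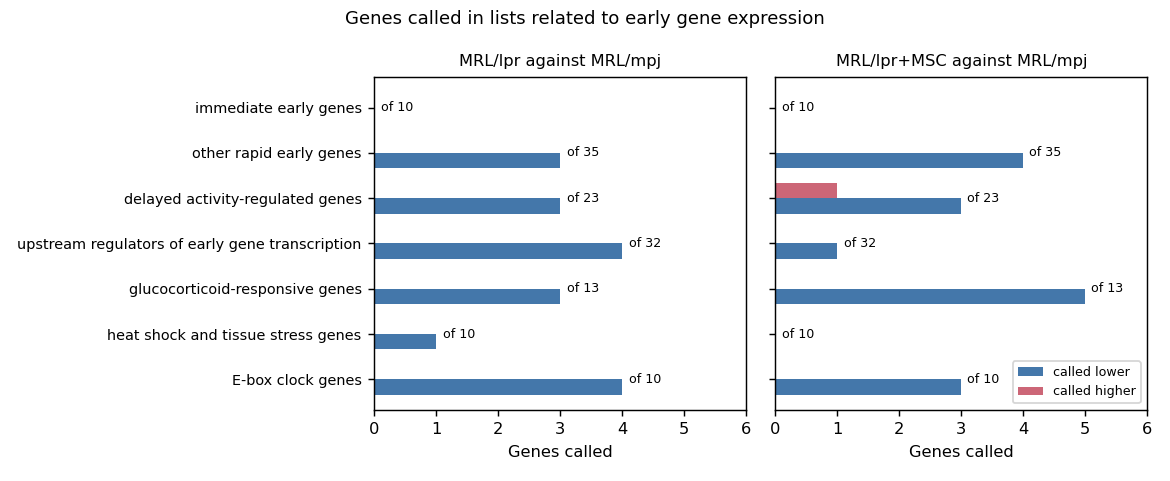
Number of genes called higher (red) or lower (blue) against MRL/mpj by limma voom in each list, with the number tested beside the bar. No immediate early gene of 10 was called in either comparison, and 4 of 10 and 3 of 10 clock genes were called lower. Over all genes tested, 5.80% and 3.41% were called.

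The genes whose pattern was most like the set over the 9 libraries were sought among 11869 others with a mean of at least 5 CPM. Fis1, a mitochondrial outer membrane protein, had the highest Pearson's r with the mean standardised level of the 10 members, 0.937 (0.949 after subtraction of group means), and stayed between 84.2 and 102 CPM. Klf12 followed at 0.931 (0.944), Uqcrh at 0.906 (0.963), Cntnap5a at 0.904 (0.942) and Slc25a25 at 0.895 (0.968). Fgd1 (0.892 and 0.898), Midn (0.892 and 0.900) and Gm15446 (0.887 and 0.887) completed the 8. Slc25a25, a mitochondrial carrier, lay between 49.9 and 74.9 CPM and Cntnap5a between 34.2 and 58.0 CPM. With 9 libraries and so many genes, values of this height are given as a description only.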

How the data were processed

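Hippocampal poly(A) RNA of 9 mice was sequenced, and groups were taken from the labels. The authors aligned reads with STAR to mm10 and counted them per gene with HTSeq, while the submitters' processing notes name TopHat2 and GRCm38. Strand use is not stated. The deposited matrix holds these raw counts. The authors also deposited FPKM values, counts divided by gene length and library size, used here only to compare levels between genes. Columns with values of no sample numbered 0.

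The members and lists were chosen with earlier results of these data known. Genes were named as follows: all members, up to 4 called genes with the largest change per related list and comparison, Egr3, Jun, Nr4a1, Bdnf, Homer1 and Fas, and the 8 genes most alike. List symbols matched for 237 of 237 genes, 3 through RefSeq synonyms, and 47224 of 47643 matrix genes matched GENCODE M21.

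Counts were scaled by TMM (30% of log ratios and 5% of levels trimmed). Genes entered a test with a CPM equal to 10 counts in a median library in 3 libraries and 15 counts in total. Limma voom with robust moderation, run in R 4.3.3 with limma 3.58.1 and statmod 1.5.0, was fitted on the 6 libraries of each comparison, with Benjamini-Hochberg adjustment over all genes tested. CPM in the text are TMM-scaled over 9 libraries, and log2 CPM add 0.5 counts. The planned quasi-likelihood count test was not run, because the matrix is separated by a character that kept its unit from being accepted as a count, so the listed alternative, limma voom, became the main test. Labels tie no replicate number to a shared litter or day. Libraries of a group differed by more than sampling noise. The p-values set each difference between group means against a moderated estimate of the spread between these mice. The test was tried on simulated data first. Alternatives were other scalings, filters, a joint fit, a replicate block and leaving out each library, and limma-trend and library quality weights were added after seeing the data.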

Additional observations from a re-analysis of the deposited data

How the results depend on the processing

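The number of members called stayed at 0 in all 3 comparisons under every alternative that kept all libraries, and leaving out 1 library gave 0 to 1 in MRL/lpr against MRL/mpj and 0 in the others. Over the 30 log2 fold changes of members and 14 alternatives each, 395 of 420 values kept direction and side of the threshold, 1 became a call and 24 reversed. With scaling by total count, Egr2 turned to 0.0603 in MRL/lpr and Fosb to 0.0585 in MRL/lpr+MSC (against MRL/mpj), Fas in MRL/lpr to 0.0848, and Jun to -0.0164 between MRL/lpr+MSC and MRL/lpr. With library quality weights, Fosb turned to 0.0543, Fas to 0.10, and in MRL/lpr+MSC against MRL/lpr Fos to 0.0944, Egr4 to 0.11 and Jun to -0.0297. Leaving out 1 library at a time, the log2 difference in MRL/lpr against MRL/mpj ran from -0.51 to 0.24 for Egr2, -0.62 to 0.0788 for Egr4, -0.43 to 0.0546 for Ier2, -0.66 to 0.15 for Dusp1 and -0.24 to 0.15 for Fas. In MRL/lpr+MSC against MRL/mpj it ran from -0.21 to 0.21 for Fosb, -0.37 to 0.0436 for Junb, -0.11 to 0.57 for Npas4 and -0.0059 to 0.35 for Jun. In MRL/lpr+MSC against MRL/lpr it ran from -0.64 to 0.20 for Fos, -0.0118 to 0.33 for Junb, -0.0361 to 0.59 for Egr1, -0.47 to 0.25 for Egr4, -0.79 to 0.0469 for Arc, -0.16 to 0.31 for Ier2, -0.19 to 0.21 for Jun and -0.15 to 0.31 for Bdnf.

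Genes called in MRL/lpr against MRL/mpj numbered 969 and, with library quality weights, 2069, with 165 to 1693 when 1 library was left out. In MRL/lpr+MSC against MRL/mpj they numbered 553, 1182 with weights, and 193 to 1512 with 1 library left out, where fewer samples were fitted. In MRL/lpr+MSC against MRL/lpr they numbered 0 throughout. Scaling by total count moved the median of all genes in MRL/lpr against MRL/mpj from 0.02 to 0.15, and its calls from 569 higher and 400 lower to 939 and 271. The deviations of same-numbered libraries correlated at -0.21 to -0.016 for replicate 1, 0.133 to 0.231 for replicate 2 and 0.087 to 0.359 for replicate 3. They did not exceed 0.1 for every pair and no label ties the numbers to a shared source, so the numbers were not taken as pairing mice, although part of the libraries deviated together. With the replicate block 280 genes were called in MRL/lpr+MSC against MRL/mpj and 1335 in MRL/lpr against MRL/mpj, and members stayed at 0. Of the calls in related lists, the block kept 17 of 18 in MRL/lpr (not Rasgrp1) and 7 of 17 in MRL/lpr+MSC (not Klf10, Pcsk1, Rasgrp1, Nr1d1, Gadd45b, Zbtb16, Mt2, Fosl1, Plk2 and Errfi1). The causes were not tested. The quasi-likelihood test and DESeq2 were not run. Depth limited Egr2 most, at 36 to 150 counts, and the number of mice limited every member.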
